A study of Mus musculus with 6 samples.

Results

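Autoantibodies in Sjögren's syndrome and systemic lupus bind a small set of proteins of the nucleus and cytoplasm, and 7 mouse genes that encode such autoantigens are described here in spleen RNA. They are Trim21 (Ro52), Ssb (La), Snrnp70, Snrpb, Snrpd1, Cenpb and Top1, taken by name from the 47729 genes of the count table. All 7 were among the 15330 genes with enough counts to be tested. The study sequenced total RNA of whole spleens from female mice of a strain that develops Sjögren-like disease, NOD.B10 (NOD.B10Sn-H2b/J), and of the healthy strain BL/10 (C57BL/10), with 3 biological replicates of each. NOD.B10 carries the H2b haplotype on the NOD background, the labels give no treatment for either strain, and no library used here is described as Myd88-deficient. The strains differ at many loci, and the spleens were not sorted into cell types.

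The labels of these 6 libraries disagree with each other, and the direction of every comparison rests on how that is read. For all 6, the title and the strain field name the opposite strain to the description and the column name. The description and column name were followed, and under the titles each "higher" below would read "lower". Age differs too: the age fields give 26 weeks for NOD.B10 replicates 1, 2 and 3 and for BL/10 replicate 1, and 36 weeks for BL/10 replicates 2 and 3, while the design text gives 26 weeks for all. Within BL/10, age and replicate cannot be told apart. A fit with age as a covariate, or without the 36-week libraries, therefore takes the strain difference from 3 NOD.B10 libraries against BL/10 replicate 1 alone. Library BL/10 replicate 3 was matched by library number and strain, because its description repeats the sample number of another library. The NOD.B10 libraries held 16476126, 16257041 and 17160323 counted reads and the BL/10 libraries 18298451, 15662712 and 17935130, in the order of replicates 1, 2 and 3 used throughout.

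Trim21 is a cytosolic Fc receptor and ubiquitin ligase that grips antibody-coated particles and marks interferon regulatory factors for degradation. La binds the uridine-rich tails of new RNA polymerase III transcripts and, with Ro proteins, holds small Y RNAs. The Sm proteins form a ring on spliceosomal small nuclear RNAs, and the U1-70K protein encoded by Snrnp70 sits on the U1 particle that recognizes the start of introns. Cenpb binds a short box in centromeric satellite DNA, and Top1 nicks a strand of DNA to relax supercoils ahead of polymerases. Lymphocytes that bind such nucleic acid particles can take up their RNA or DNA and bring it to endosomal Toll-like receptors, and the spleen is a main site where such lymphocytes meet antigen.

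The spleen label was checked against 6 genes, and each of the 6 was present in every library above a floor of 3 counts. Their summed level was 5614, 4627 and 6154 CPM (read counts relative to library size after TMM correction) in NOD.B10 and 5157, 3629.9 and 4015 CPM in BL/10. Cd74, the invariant chain of antigen presentation, was the most abundant of them at 3593, 2814 and 3874 CPM in NOD.B10 and 3407, 2349 and 2776 CPM in BL/10.

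None of the 7 autoantigen genes passed an adjusted p of 0.05 between the strains, by the edgeR quasi-likelihood test with Benjamini-Hochberg adjustment over all tested genes. Across all genes, 17.3% passed (2656 of 15330), 8.22% lower and 9.11% higher in NOD.B10. None of the 7 reached an unadjusted p under 0.05 in edgeR, beside 34.2% of all tested genes, and DESeq2 also gave 0 of 7 by either count. In edgeR without BL/10 replicate 3, the unadjusted p was under 0.05 for 3 of the 7, Snrpd1 (0.00766), Ssb (0.0155) and Trim21 (0.0170), beside 30.1% of all genes in that fit. It was so for 1 of the 7 with the loosest count filter (23.6% of all genes) and for 1 of the 7 without the 36-week libraries (20.3%). Their edgeR adjusted p ranged from 0.213 for Snrpd1 to 0.733 for Snrnp70. The 95% intervals of the 7 fold changes ran from a lowest bound of 0.587 (Snrpd1) to a highest of 1.27 (Cenpb), each gene having its own narrower interval, given below, and every interval included 1. The libraries of the strains did not overlap for 2 of the 7 genes, Snrpb and Cenpb, beside 38.0% of all tested genes. The fitted fold change was below 1 in NOD.B10 for 6 of the 7 and above 1 for Cenpb, with a median log2 fold change of -0.16 beside 0.0006 over all tested genes. An exact permutation test of 3 against 3 libraries cannot go below p = 0.1, so it was not used for calls. The count of all genes past the threshold was 1269 without NOD.B10 replicate 1, 1395 without NOD.B10 replicate 3, 1580 without BL/10 replicate 2, 1744 without BL/10 replicate 3 and 4107 without BL/10 replicate 1, while that of the autoantigen genes was 0 in each.

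**Figure D1:**
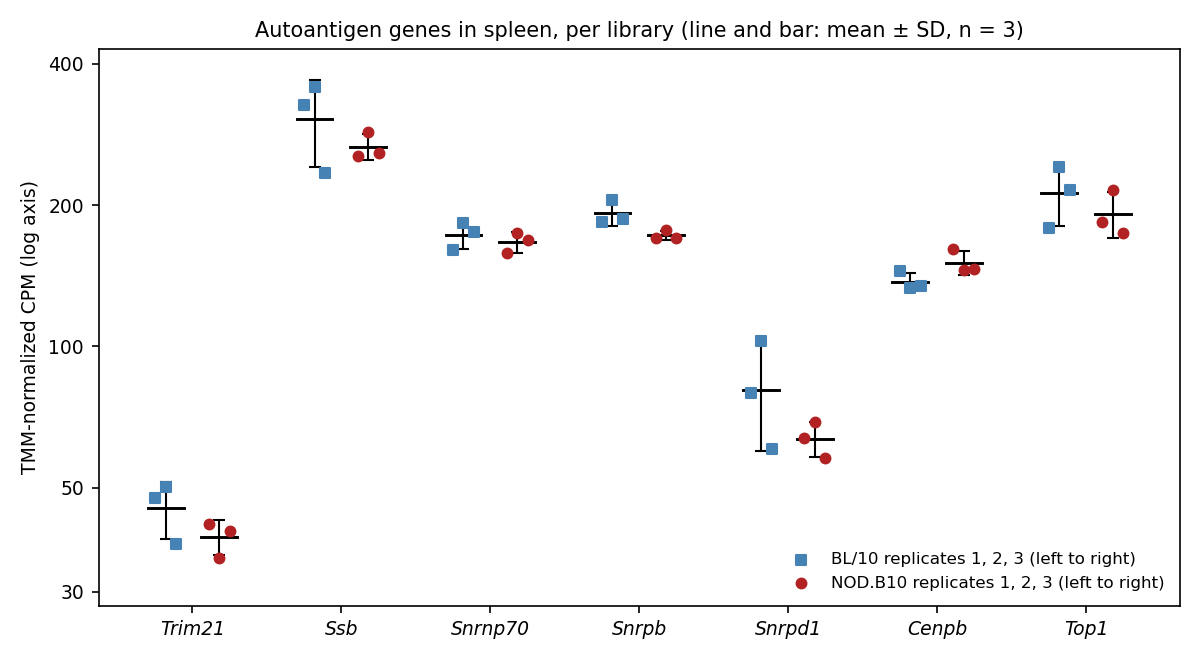
Level of each of the 7 autoantigen genes in every library, in TMM-scaled CPM. None passed an adjusted p of 0.05 in edgeR with 3 libraries per strain, and the ranges of the strains are apart only for Snrpb and Cenpb among the 7.

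Trim21, the ubiquitin ligase known to clinicians as Ro52, lies at chr7:102557922-102565469 on the minus strand and had 41.9, 35.4 and 40.4 CPM in NOD.B10 and 47.4, 50.0 and 38.0 CPM in BL/10. BL/10 replicates 1 and 2 were the highest of the 6 libraries, but BL/10 replicate 3 lay inside the NOD.B10 range, so the groups overlap. The edgeR log2 fold change was -0.20 with a standard error (SE) of 0.12, adjusted p 0.291 and a 95% fold interval of 0.712 to 1.06. It was -0.32 without BL/10 replicate 3 (edgeR adjusted p 0.0934), -0.12 without BL/10 replicate 2 (0.578) and -0.13 without NOD.B10 replicate 2 (0.556). Ssb, which encodes La, had 255, 287 and 259 CPM in NOD.B10 against 327, 356 and 233.7 CPM in BL/10. Here the highest and the lowest of the 6 values both came from BL/10, from replicates 2 and 3, and the NOD.B10 range lay within the BL/10 range. Its log2 fold change in edgeR was -0.20 (SE 0.16, adjusted p 0.426, fold interval 0.672 to 1.13). Without BL/10 replicate 3 the Ssb value was -0.36 (edgeR adjusted p 0.0890), without BL/10 replicate 2 it was -0.07 (0.814), and without the 36-week libraries -0.30 (0.265).

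Among the spliceosomal genes, Snrnp70, whose protein U1-70K is a main target of anti-RNP antibodies, had 157.8, 174.5 and 168.5 CPM in NOD.B10 and 160.6, 183.5 and 175.2 CPM in BL/10. Both strains were lowest in replicate 1 and highest in replicate 2, and the ranges overlap, although BL/10 replicates 2 and 3 lay above every NOD.B10 library. With a log2 fold change of -0.05 (SE 0.10, edgeR adjusted p 0.733, fold interval 0.828 to 1.12), it had the smallest fitted difference of the 7. The log2 fold change was 0.06 when age was a covariate and 0.06 when the 36-week libraries were left out, both against 1 BL/10 library. With other libraries left out it was -0.01 (without NOD.B10 replicate 1 or without BL/10 replicate 2), -0.08 (without NOD.B10 replicate 2) and -0.11 (without BL/10 replicate 1). Snrpb, the gene of the SmB and SmB' ring proteins, had 169.9, 177 and 170.0 CPM in NOD.B10 and 184, 205 and 187 CPM in BL/10. Every BL/10 library was above every NOD.B10 library, and of the 7 genes this one varied least in NOD.B10. By edgeR this was a log2 fold change of -0.16 (SE 0.09, adjusted p 0.255, fold interval 0.776 to 1.04), and of -0.10 in both age settings. Snrpd1, the gene of SmD1, had 63.7, 69.0 and 57.9 CPM in NOD.B10 and 79.6, 103 and 60.5 CPM in BL/10. BL/10 replicates 1 and 2 were above all NOD.B10 libraries, while BL/10 replicate 3 lay among them. It had the largest fitted difference of the 7, a log2 fold change of -0.35 (SE 0.18, edgeR adjusted p 0.213, fold interval 0.587 to 1.05). Without BL/10 replicate 3 the edgeR adjusted p of Snrpd1 was 0.0596, its lowest in any fit, and the log2 fold change was -0.52, while without BL/10 replicate 2 these were 0.570 and -0.14.

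For the genes of chromatin proteins, Cenpb had 161, 145 and 146 CPM in NOD.B10 and 145, 133 and 134 CPM in BL/10. All NOD.B10 libraries were above all BL/10 libraries, though the lowest NOD.B10 value, 145.3 CPM, and the highest BL/10 value, 144.6 CPM, nearly touch. Cenpb was the sole gene of the 7 with a fitted increase, a log2 fold change of 0.14 (SE 0.09, edgeR adjusted p 0.320, fold interval 0.951 to 1.27). It was 0.09 without NOD.B10 replicate 1 and 0.06 in both age settings. Top1, the type I topoisomerase known as Scl-70 in scleroderma, had 184, 216 and 175 CPM in NOD.B10 and 179, 242 and 215 CPM in BL/10. The strains overlap, with replicate 2 the highest in each. Its edgeR log2 fold change of -0.15 (SE 0.14, adjusted p 0.497, fold interval 0.722 to 1.13) became 0.10 with age as a covariate and 0.10 without the 36-week libraries, both against 1 BL/10 library. With 1 library left out the Top1 value was -0.26 without BL/10 replicate 1, -0.24 without NOD.B10 replicate 2, -0.08 without NOD.B10 replicate 3 and -0.04 without BL/10 replicate 2.

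The autoantigen genes varied more among BL/10 libraries than among NOD.B10 libraries for 6 of the 7, Cenpb being the exception. The coefficient of variation ran from 2.43% for Snrpb in NOD.B10 to 26.0% for Snrpd1 in BL/10. BL/10 replicate 2 held the highest CPM of all 6 libraries for 6 of the 7 genes, and NOD.B10 replicate 1 held it for Cenpb. Summed over the 7 genes, the level was 1034, 1104 and 1016 CPM in NOD.B10 and 1123, 1273 and 1044 CPM in BL/10. BL/10 replicate 2 thus had the highest sum, BL/10 replicate 1 lay just above the NOD.B10 range and BL/10 replicate 3 within it.

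Per length, the autoantigen transcripts are abundant in spleen, and the order of their levels was read in CPM per kilobase of exon (RPKM). The mean over the 6 libraries was 132.5 RPKM for Ssb, 101.5 for Snrnp70, 92.2 for Snrpb, 86.3 for Snrpd1, 29.5 for Cenpb, 19.4 for Top1 and 15.2 for Trim21. Ssb stood at percentile 97.7 of the tested genes on this scale and Trim21 at percentile 73.9. In NOD.B10 the ranges of neighbours in this order do not overlap for any of the 6 pairs. In BL/10 they overlap between Ssb and Snrnp70, Snrnp70 and Snrpb, Snrpb and Snrpd1, and Top1 and Trim21, so the order there is not resolved for those 4 pairs. Ssb had 123.5 RPKM in NOD.B10 (SD 8.10) and 142 RPKM in BL/10 (SD 29.7), and Trim21 had 14.1 (SD 1.21) and 16.3 RPKM (SD 2.29).

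Partners of these proteins, other autoantigens, relatives of Trim21 and interferon-stimulated genes were followed in 11 gene lists. Of the 179 listed genes other than the 7, 174 could be tested. Of the 174, 25 (14.4%) passed an adjusted p of 0.05 in edgeR, beside 17.3% of all tested genes. The list of interferon-stimulated genes holds 13 of the 25, and that of Trim21 relatives 5. The 17.3% is the background for the main edgeR counts of the lists below. Other fits have their own: 17.0% of all tested genes passed by DESeq2 (3226 of 19002), 21.8% by limma-voom (3344), and in edgeR 11.5% with the loosest count filter and 26.3%, 10.1% and 11.2% without BL/10 replicates 1, 2 and 3. Without NOD.B10 replicates 1, 2 and 3 they were 8.12%, 12.9% and 8.95%, with age as a covariate 6.15% and without the 36-week libraries 6.19%. DESeq2 gave 38 of the 174. With a library left out the edgeR count was 11 without NOD.B10 replicate 3, 13 without NOD.B10 replicate 1, 16 without BL/10 replicate 2 and 51 without BL/10 replicate 1. Only 1 of the 25, Ikbkb, was higher in NOD.B10. In bulk spleen, fewer cells of a type and less RNA per cell cannot be told apart for any of these genes.

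Around Ro and La, 0 of 9 partner genes passed in either direction, with a median log2 fold change of -0.03, 5 of 9 fitted lower and 0 at an unadjusted edgeR p under 0.05. DESeq2 also gave 0 of 9, adjusted or not. The most abundant of these partners was Ncl, the nucleolar RNA-binding protein nucleolin, with 750.2, 825 and 742 CPM in NOD.B10 and 899.6, 976 and 774 CPM in BL/10.

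In the Sm ring, 0 of 8 core genes passed in edgeR, 7 of 8 were fitted lower (6 to 7 under the other scalings), and the median log2 fold change was -0.19. Their summed level was 621, 654 and 598 CPM in NOD.B10 and 722, 810.0 and 640.1 CPM in BL/10, with BL/10 replicate 3 inside the NOD.B10 range. The proteins particular to single small nuclear ribonucleoproteins, such as those of U1 and U2, gave 0 of 22 past the threshold, 15 fitted lower (13 to 15 under the other scalings) and a median of -0.06. The LSm genes, whose proteins form related rings on U6 RNA and on decaying messenger RNA, gave 0 of 10 past the threshold, all 10 fitted lower (9 to 10 under the other scalings) and a median of -0.23. Their summed CPM was 336, 344 and 311 in NOD.B10 and 381, 412 and 349.8 in BL/10, so every BL/10 library was above every NOD.B10 library. Among genes of the SMN and PRMT5 complexes, which methylate Sm proteins and load them onto RNA, 0 of 13 tested passed, 8 were fitted lower, and the median was -0.20, with Gemin4 below the count filter. The numbers at an unadjusted edgeR p under 0.05 in these 4 lists were 2 of 8, 2 of 22, 3 of 10 and 4 of 13, beside 34.2% of all genes. By DESeq2 the unadjusted numbers were 2, 2, 2 and 4, beside 28.3% of all genes, and after adjustment 1 Sm core gene passed and 0 in the other 3 lists. In edgeR without BL/10 replicate 1, 2 of the 22 U particle genes and 2 of the 10 LSm genes passed. Without BL/10 replicate 3, or with the loosest count filter, 1 of the 8 Sm core genes did. By limma-voom, 1 of the 22 U particle genes, 1 of the 10 LSm genes and 1 of the 13 SMN and PRMT5 genes passed. In edgeR 1 of the 13 also passed with RLE size factors (17.5% of all genes) and with at least 10 counts in every library (14.8%).

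Centromere genes had a median log2 fold change of -0.57 and were fitted lower in NOD.B10 for 21 of 22 genes under each scaling tried, but 2 of the 22 passed, both lower. The remaining gene is Cenpb. The count of 2 became 11 without BL/10 replicate 1, 5 without NOD.B10 replicate 2, 1 without each of the other 4 libraries in turn, 0 with age as a covariate or without the 36-week libraries, and 6 by DESeq2 or limma-voom. Cenpv, which binds chromosomes at the inner centromere in mitosis, had 8.85, 12.5 and 8.88 CPM in NOD.B10 and 19.7, 28.9 and 23.1 CPM in BL/10. All BL/10 libraries exceeded all NOD.B10 libraries. Cenpv fell by a log2 fold change of -1.25 (SE 0.19, edgeR adjusted p 0.00486), although edgeR gave an adjusted p of 0.0546 with age as a covariate and 0.0563 without the 36-week libraries. Cenpm, a subunit of the constitutive centromere network, had 8.79, 10.99 and 8.15 CPM in NOD.B10 and 13.5, 15.4 and 17.0 CPM in BL/10, again with no overlap. It fell by -0.72 in log2 (SE 0.15, edgeR adjusted p 0.0181). That call was lost in edgeR without NOD.B10 replicate 1 (adjusted p 0.0792), NOD.B10 replicate 3 (0.0769), BL/10 replicate 2 (0.0602) or BL/10 replicate 3 (0.0623), with age as a covariate (0.197) and without the 36-week libraries (0.217). Summed over the 22 genes the level was 853, 1056 and 765 CPM in NOD.B10 and 989, 1500.3 and 1206 CPM in BL/10. A list of 15 proliferation genes had sums of 2733, 4025 and 2586 CPM in NOD.B10 and 3201, 6407 and 4819.7 CPM in BL/10. The sum of BL/10 replicate 1 lay within the NOD.B10 range. Mki67 was the most abundant, no gene was at the floor and all 15 were fitted lower. Of the 15, 1 passed, Rrm2, a subunit of ribonucleotide reductase, with a log2 fold change of -1.15 (edgeR adjusted p 0.0250), while DESeq2 passed 9 of the 15. In edgeR Rrm2 did not pass without NOD.B10 replicate 1 (adjusted p 0.0998), NOD.B10 replicate 3 (0.105), BL/10 replicate 2 (0.0786) or BL/10 replicate 3 (0.0748), with age as a covariate (0.295) or without the 36-week libraries (0.265). The part of proliferating cells in the centromere result was not tested.

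Among 10 topoisomerase genes and genes that repair their DNA adducts, 1 passed, and 7 were fitted lower (5 to 7 under the other scalings) with a median of -0.08. The count was 3 without BL/10 replicate 1 and 2 by DESeq2 or limma-voom. Tdp2, which frees DNA ends from trapped type II topoisomerase, had 19.3, 22.2 and 21.2 CPM in NOD.B10 and 38.3, 34.2 and 31.3 CPM in BL/10. Every BL/10 library was above every NOD.B10 library for Tdp2. It fell by -0.73 in log2 (SE 0.11, edgeR adjusted p 0.00431), and it passed under each other setting tried. Top2a, a type II enzyme of dividing cells and the most abundant of the 10, had 349, 513 and 357 CPM in NOD.B10 and 463, 877 and 615 CPM in BL/10, with overlap (log2 fold change -0.68, edgeR adjusted p 0.101).

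Of 26 genes for other autoantigens, 3 passed, all lower in NOD.B10, and 18 were fitted lower (17 to 18 under the other scalings), with a median of -0.22. The count of 3 became 5 without BL/10 replicate 1, 0 without NOD.B10 replicate 1, 0 without NOD.B10 replicate 3, 0 with age as a covariate and 5 by limma-voom. Exosc9, the PM/Scl-75 subunit of the RNA exosome, had 26.1, 26.2 and 26.5 CPM in NOD.B10 and 48.7, 61.0 and 35.2 CPM in BL/10. It was nearly constant in NOD.B10 and spread out in BL/10, without overlap. Exosc9 fell by -0.88 in log2 (SE 0.18, edgeR adjusted p 0.0165), with the call lost without NOD.B10 replicate 1 (adjusted p 0.0680), without NOD.B10 replicate 3 (0.0632) and with age as a covariate (0.0984). It passed without the 36-week libraries (edgeR adjusted p 0.00657), and the log2 fold change was -0.89 in both age settings. Xrcc6, the Ku autoantigen subunit of DNA end joining, had 42.1, 50.1 and 43.8 CPM in NOD.B10 and 76.6, 97.0 and 60.8 CPM in BL/10. All BL/10 libraries were higher, replicate 2 most of all. Xrcc6 fell by -0.79 in log2 (SE 0.17, edgeR adjusted p 0.0181), with the call lost without NOD.B10 replicate 1 (adjusted p 0.0806), without NOD.B10 replicate 3 (0.0766) and with age as a covariate (0.122). Without the 36-week libraries Xrcc6 passed (edgeR adjusted p 0.0204), and both age settings gave a log2 fold change of -0.76. Rplp0, a stalk protein of the ribosome and target of anti-ribosomal P antibodies, had 1249, 1287 and 1216 CPM in NOD.B10 and 1644, 1660.3 and 1716 CPM in BL/10. Its values were tight within each strain and well apart. Rplp0 fell by -0.42 in log2 (SE 0.105, edgeR adjusted p 0.0325). Of the leave-one-out fits, the one without BL/10 replicate 1 kept the Rplp0 call (adjusted p 0.0370), and the values were 0.147, 0.0804 and 0.126 without NOD.B10 replicates 1, 2 and 3 and 0.0761 and 0.0725 without BL/10 replicates 2 and 3. With age as a covariate it was 0.168 and without the 36-week libraries 0.156, against 1 BL/10 library, with log2 fold changes of -0.394 and -0.395. Some reads of these 3 genes may have been left out of the counting or may belong elsewhere, and counting ignored strand. Of the 50-base words of Rplp0 33.1% also occur in another annotated gene, of those of Exosc9 9.61% and of those of Xrcc6 6.29%. Those of Exosc9 are mostly in Ccna2, whose span overlaps it, and those of Xrcc6 mostly in Desi1.

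Trim21 acts on signaling proteins, and of 15 substrates and partners of its protein 1 was higher and 1 lower in NOD.B10. Their median log2 fold change was 0.01, with 6 of 15 fitted lower (6 to 7 under the other scalings). Of the 15, 6 passed without BL/10 replicate 1, 1 without NOD.B10 replicate 1, 1 without BL/10 replicate 2, 0 without NOD.B10 replicate 3, 0 without BL/10 replicate 3, 0 in both age settings and 4 by limma-voom. Ikbkb, the kinase that releases NF-kappaB and that TRIM21 tags with ubiquitin, had 131, 125 and 154 CPM in NOD.B10 and 106, 91.7 and 98.3 CPM in BL/10. All NOD.B10 libraries were above all BL/10 libraries. Ikbkb rose by 0.47 in log2 (SE 0.11, edgeR adjusted p 0.0246). The adjusted p in edgeR was 0.0728 without NOD.B10 replicate 1, 0.0740 without NOD.B10 replicate 3, 0.0761 without BL/10 replicate 2, 0.0725 without BL/10 replicate 3, 0.229 with age as a covariate and 0.238 without the 36-week libraries. Irf7, a master factor of type I interferon transcription, had 47.0, 32.6 and 44.1 CPM in NOD.B10 and 62.7, 128 and 107 CPM in BL/10. BL/10 replicate 1, the 26-week library, was the nearest to NOD.B10, with no overlap. Irf7 fell by -1.27 in log2 (SE 0.26, edgeR adjusted p 0.0155). Irf7 is also in the list of interferon-stimulated genes below, and was counted once in the total over all lists. Its call was lost without NOD.B10 replicate 3 (adjusted p 0.0559), without BL/10 replicate 3 (0.0502), with age as a covariate (0.156) and without the 36-week libraries (0.149).

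Trim21 shares its domain order, a RING finger, B-box, coiled coil and PRY-SPRY, with a family called C-IV, and 5 of 22 tested C-IV relatives were lower in NOD.B10 and 0 higher. The median of the 22 was -0.10, near that of all genes, with 13 fitted lower (12 to 13 under the other scalings). The count of 5 became 8 without BL/10 replicate 1, 3 without each of the NOD.B10 libraries in turn, 9 by DESeq2 and 8 with the loosest count filter. Of 26 written, Trim17, Trim38, Trim69 and Trim72 were below the count filter. The 5 are Trim12a, Trim12c, Trim34a and Trim5, relatives of antiviral capsid sensors, and Trim25, the ligase that activates RIG-I. Of these, 4 lie among 9 relatives on the chromosome of Trim21, from Trim68 to Trim30d at chr7:102677580-104507849. Trim68 starts 112 kb past the end of Trim21, whereas the next relative, Trim6, starts 1.65 Mb past it and Trim34a, the nearest of the 4, 1.68 Mb past it. Trim12a was almost absent from NOD.B10, with 1, 2 and 2 raw counts against 1251, 773 and 786 in BL/10. Summed, that is 5 counts against 2810, and the ratio of BL/10 over NOD.B10, scaled by TMM library size, is 561 with an interval of 240.0 to 1728 that covers counting error alone. All its NOD.B10 counts are under the floor of 3, so Trim12a entered the test through BL/10 only and its place among the 5 was fixed by that. Trim12c had 10.8, 11.5 and 10.7 CPM in NOD.B10 and 83.5, 78.1 and 61.5 CPM in BL/10. It fell by -2.76 in log2 (SE 0.13, edgeR adjusted p 3.0e-05), with no overlap between the strains.

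Trim34a had 5.68, 5.65 and 7.36 CPM in NOD.B10 and 29.4, 20.7 and 20.2 CPM in BL/10. This gene too is without overlap and fell by -1.91 in log2 (SE 0.19, edgeR adjusted p 0.000723). Trim5 had 9.57, 7.62 and 9.83 CPM in NOD.B10 and 28.6, 18.4 and 14.0 CPM in BL/10, lower in every NOD.B10 library. Trim5 fell by -1.17 in log2 (SE 0.26, edgeR adjusted p 0.0207), with the call lost without NOD.B10 replicates 1 (adjusted p 0.0683), 2 (0.0618) or 3 (0.0618). Trim25, which lies on another chromosome, had 107, 99.98 and 119.6 CPM in NOD.B10 and 129, 159 and 151 CPM in BL/10. It fell by -0.42 in log2 (SE 0.11, edgeR adjusted p 0.0395) and passed without BL/10 replicate 1 (0.00996) but not without NOD.B10 replicates 1 (0.141), 2 (0.109) or 3 (0.0596), nor without BL/10 replicates 2 (0.113) or 3 (0.0876), with age as a covariate (0.370) or without the 36-week libraries (0.356). The 4 genes on chromosome 7 resemble other genes, so their levels are uncertain: 59.7% of the 50-base words of Trim34a (mostly in Trim34b), 36.6% of Trim5, 33.7% of Trim12c and 10.5% of Trim12a also occur in another gene. Strain differences in these gene copies, in sequence match to the reference genome and in expression cannot be told apart here. Trim21 itself shares 8 of its 3710 words with another gene (0.22%).

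**Figure D2:**
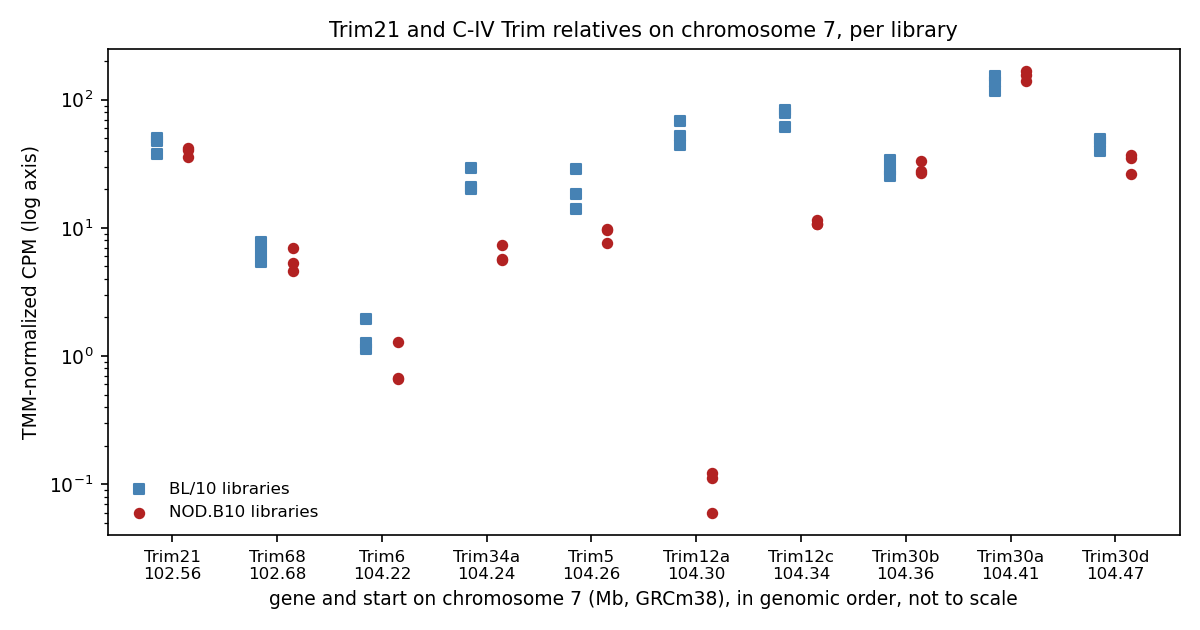
Trim21 and the C-IV relatives on chromosome 7, in genomic order and not to scale, with the level in every library in TMM-scaled CPM. Trim12a, Trim12c, Trim34a and Trim5 passed an adjusted p of 0.05 in edgeR and Trim21 did not; shared sequence makes the values of the 4 uncertain.

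Interferon-stimulated genes, a set raised by type I interferon in lupus and Sjögren's syndrome, passed as lower in NOD.B10 for 13 of 23 and as higher for 0; the median log2 difference was -0.87, with 19 of 23 fitted lower under each scaling tried. The summed level was 1120, 969.6 and 979 CPM in NOD.B10 and 1184, 2112 and 1843 CPM in BL/10. By this sum the 36-week libraries, BL/10 replicates 2 and 3, stand out, while BL/10 replicate 1 is just above NOD.B10. The sum leans on Rsad2, for which BL/10 replicate 1 lay inside the NOD.B10 range. Gene by gene, the libraries of the strains did not overlap for 14 of the 23, beside 38.0% of all tested genes. The count of 13 became 6 without NOD.B10 replicate 3, 8 without NOD.B10 replicate 1, 8 without BL/10 replicate 2, 8 without BL/10 replicate 3, 4 with age as a covariate and 4 without the 36-week libraries. Rsad2, the antiviral enzyme viperin and the most abundant of the 23, had 259, 291 and 159.7 CPM in NOD.B10 and 225, 685 and 644 CPM in BL/10, and did not pass (log2 fold change -1.13, edgeR adjusted p 0.0958).

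Of the 13, the 6 with the largest differences are Isg15, Oas1a, Oasl1, Oas2, Ifi44 and Cmpk2. Isg15, a ubiquitin-like modifier, had 57, 46.5 and 38.6 CPM in NOD.B10 and 79.8, 234 and 213 CPM in BL/10. Isg15 fell by -1.89 in log2 (SE 0.37, edgeR adjusted p 0.0137). The call was lost without NOD.B10 replicate 3 (adjusted p 0.0654), with age as a covariate (0.0731, log2 fold change -0.75) and without the 36-week libraries (0.0845, -0.75), and the direction stayed lower. Oas1a, an enzyme that makes 2-5A to switch on RNase L, had 5.92, 5.04 and 5.28 CPM in NOD.B10 and 13.9, 21.6 and 17.7 CPM in BL/10. Oas1a fell by -1.71 in log2 (SE 0.18, edgeR adjusted p 0.000964), though 57.6% of its 50-base words recur elsewhere, mostly in Oas1g. Oasl1, a related protein that restrains Irf7 translation, had 5.92, 3.93 and 5.73 CPM in NOD.B10 and 13.5, 17.9 and 15.97 CPM in BL/10. It fell by -1.60 in log2 (SE 0.19, edgeR adjusted p 0.00154), one of those that passed in each setting tried. Oas2, a sister enzyme, had 3.47, 2.64 and 3.99 CPM in NOD.B10 and 7.495, 12.5 and 10.5 CPM in BL/10. The fall was -1.59 in log2 (SE 0.24, edgeR adjusted p 0.00446, 0.0583 without the 36-week libraries). Ifi44, a cytoplasmic interferon-induced protein, had 5.14, 1.78 and 5.56 CPM in NOD.B10 and 9.83, 16.03 and 11.8 CPM in BL/10. Ifi44 fell by -1.58 in log2 (SE 0.38, edgeR adjusted p 0.0271). That call was lost without NOD.B10 replicate 1 (adjusted p 0.0678), NOD.B10 replicate 3 (0.0503), BL/10 replicate 2 (0.0826) or BL/10 replicate 3 (0.0641), with age as a covariate (0.216) and without the 36-week libraries (0.227). Cmpk2, a mitochondrial nucleotide kinase next to Rsad2 in the genome, had 30.4, 30.3 and 28.7 CPM in NOD.B10 and 57.9, 112.5 and 89.2 CPM in BL/10. It fell by -1.54 in log2 (SE 0.22, edgeR adjusted p 0.00350) and passed in each setting tried. For all 6, every BL/10 library was above every NOD.B10 library, and the lowest BL/10 value was that of replicate 1.

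**Figure D3:**
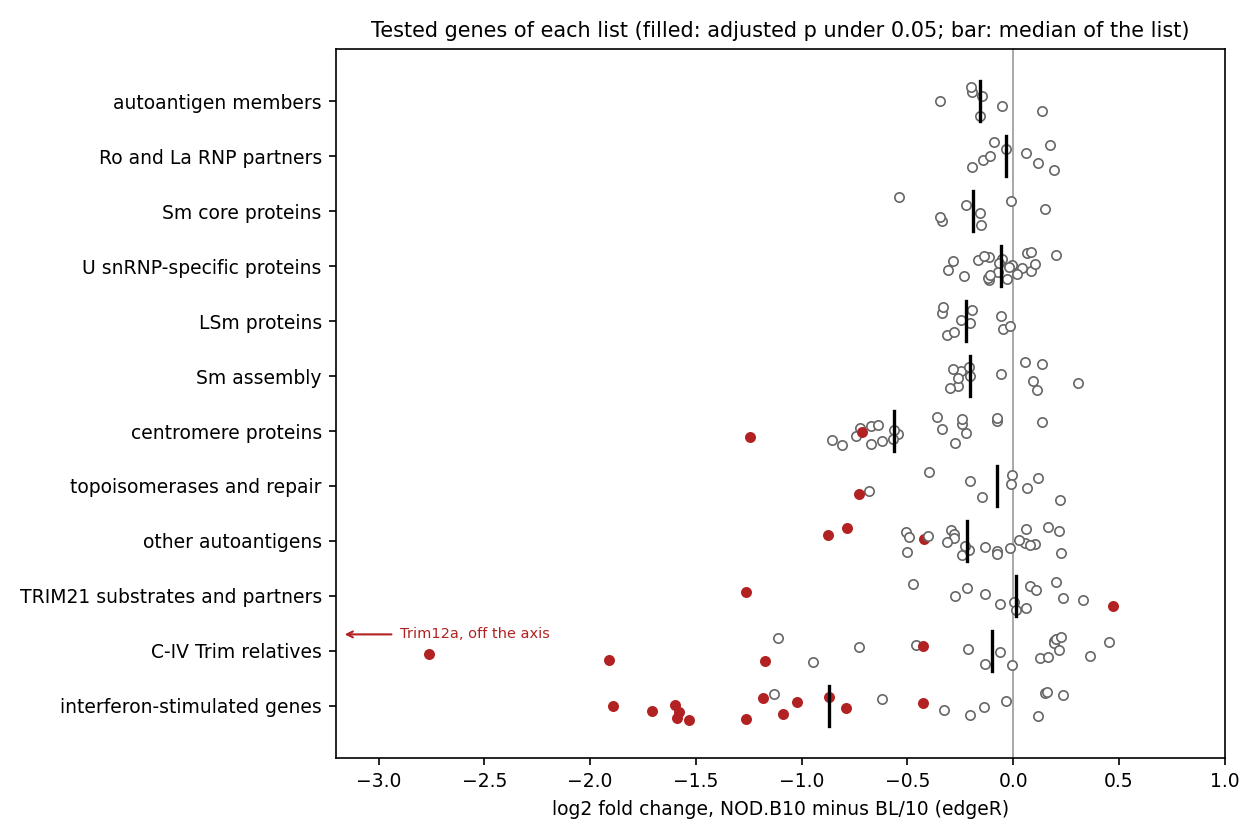
Log2 fold change, NOD.B10 minus BL/10, of each tested gene by list, with genes past an adjusted p of 0.05 in edgeR filled and the median of the list as a bar. Trim12a lies off the axis, and the share fitted lower shifts by 1 or 2 genes under other scalings in the Sm core, U snRNP, LSm, topoisomerase, other autoantigen, substrate and C-IV lists.

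The upstream letters of the genes were read because Trim21 belongs with interferon-induced genes in other settings while its level was not called here. Promoters of 300 bases, 250 before and 50 after the start, were in the RefSeq table (GRCm38.p6) for 5 of the 7 genes, without Snrpb and Snrpd1. The core of the interferon-stimulated response element, GAAANNGAAA on either strand, occurs in 3.44% of all 32851 promoters, in 9 of 16 interferon-stimulated genes with an entry, and in 1 of the 5 autoantigen genes, Trim21. For all letters searched, the share of all promoters counts each promoter entry, whereas a listed gene counts once if any of its promoters matches. The 2 measures are thus not alike. Of the 9 interferon-stimulated genes with the letters 4 passed the test, and of the 7 without them 5 did. Below, capitals mark all bases inside the matches, which overlap each other in Trim21 (2 matches), Isg15 (3 matches) and Oas1a (2 matches). Each is on the minus strand of GRCm38.p6 and read in the direction of transcription: Trim21 at chr7:102565447-102565476, Isg15 at chr4:156200871-156200900 and Oas1a at chr5:120907523-120907552.
Trim21: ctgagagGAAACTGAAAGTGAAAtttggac
Isg15: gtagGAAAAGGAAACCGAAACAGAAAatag
Oas1a: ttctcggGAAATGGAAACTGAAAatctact
The Trim21 match lies from base 14 to base 29 after the RefSeq start, which lies upstream of the first base of the gene as given above, so by those coordinates it covers the first bases of Trim21, while those of Isg15 and Oas1a lie before it. The other letters searched, also on both strands, were the NRF-1 motif GCATGCGC, whose reverse complement is GCGCATGC and which is in 2.71% of all promoters, the GC box GGGCGG, in 35.7%, and CCAAT, in 37.4%. Of the 5 autoantigen promoters, 1 (Snrnp70) holds the NRF-1 letters, 5 hold a GC box and 0 hold CCAAT. In the 5 promoters no match of a motif overlaps a match of another. A match describes letters and shows no binding.

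Marker genes of several cell types differed between the strains, and their part in every result above was not tested. Neutrophil genes were lower in NOD.B10 for 12 of 12, with a summed level of 2235, 2527 and 2197 CPM in NOD.B10 and 6232, 13129 and 11429 CPM in BL/10. S100a9, the most abundant of the 12, had 1109, 1186 and 937 CPM in NOD.B10 and 2810.0, 5633 and 5029 CPM in BL/10. T cell genes were higher in NOD.B10 for 11 of 12, with sums of 1036, 953 and 1331 CPM against 596, 502 and 459.8 CPM, Cd4, the helper T cell coreceptor, being the most abundant. Plasma cell genes were higher for 6 of 8, with sums of 3349, 3854 and 3729 CPM against 2700.1, 2419.9 and 2123 CPM, led by Jchain, the joining chain of polymeric antibodies. B cell genes gave 0 of 10 past the threshold, with sums of 4679, 4007 and 5201 CPM against 5306, 2983 and 3245 CPM, led by Ms4a1, which encodes CD20. No gene of these 4 lists was at the floor of 3 counts per library.

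Macrophage genes gave 1 higher and 1 lower of 8, with sums of 4768, 4198 and 3781 CPM against 3984, 4032 and 4693 CPM, led by Hmox1, a heme-degrading enzyme. Erythroid genes gave 0 of 9 past the threshold, with sums of 41412, 48403 and 27004 CPM against 27878, 54997 and 62830.1 CPM, led by the adult beta-globin Hbb-bs; Ahsp had no match in the annotation. Megakaryocyte genes gave 1 lower of 6, with sums of 663, 793 and 533 CPM against 1244, 681 and 969 CPM, led by the platelet chemokine Ppbp. Adipocyte genes gave 0 of 5 past the threshold, with sums of 49.6, 40.1 and 44.2 CPM against 31.0, 52.8 and 189 CPM, led by Fabp4, a fatty acid binding protein. Of the 6 spleen genes above, 1 was higher. Pancreas acinar genes, listed because the pancreas adjoins the spleen, had sums of 31.3, 29.7 and 22.4 CPM in NOD.B10 and 14318, 2166.5 and 112 CPM in BL/10. Those that could be tested, 12 of 15, were lower, but 11 of the 12 had at most 17 counts in any NOD.B10 library and entered the test through BL/10, which fixes their direction. Cela1, an elastase, was the most abundant, and of 15 acinar genes 5 were at or under the floor in NOD.B10 and 1, Amy2a1, in BL/10. The acinar signal is thus mainly that of BL/10 replicate 1 and to a lesser degree replicate 2, and 0 of the 7 autoantigen genes passed when acinar, hemoglobin and immunoglobulin genes were left out of the scaling.

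Position gives some of these genes company. Of the 7, 4 lie on chromosome 2 (Ssb, Snrpb, Cenpb and Top1), 2 on chromosome 7 and 1 on chromosome 18. Plcg1, the phospholipase next to Top1, showed raw counts of 1296, 1144 and 1525 in NOD.B10 and of 864, 642 and 875 in BL/10, and rose by 0.74 in log2 (SE 0.10, edgeR adjusted p 0.00316). Klhl23, a Kelch protein next to Ssb, showed raw counts of 298, 388 and 277 in NOD.B10 and of 507, 568 and 581 in BL/10, and fell by -0.79 in log2 (SE 0.18, edgeR adjusted p 0.0252). The Klhl23 call was lost in edgeR without NOD.B10 replicate 1 (adjusted p 0.0998), NOD.B10 replicate 3 (0.0945), BL/10 replicate 2 (0.0881) or BL/10 replicate 3 (0.0719), with age as a covariate (0.2596) and without the 36-week libraries (0.262). Each of these neighbours is without overlap between the strains, beside a Top1 and an Ssb that did not pass. Cdc25b, a phosphatase of mitotic entry next to Cenpb, had a log2 fold change of -0.69 (edgeR adjusted p 0.141). Esco1 and Abhd3 flank Snrpd1 with log2 fold changes of 0.16 (edgeR adjusted p 0.404) and 0.44 (0.301). The olfactory receptor genes Olfr549 and Olfr550 on the sides of Trim21 had 0 counts, and Tgm6 and Tmc2 beside Snrpb and Lin7b and Kcna7 beside Snrnp70 had few.

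Sequence shared with other loci touches Ssb most among the 7. It shares 19.7% of its 50-base words with other genes, mostly with Gm13625, which overlaps it on the opposite strand, so the Ssb level is uncertain. Gm13625 drew 0, 0 and 0 counts against 0, 1 and 1, and reads that touch more than 1 gene were left out of the counting. Mettl5, an RNA methyltransferase subunit whose exons overlap Ssb by 169 bases in antisense, drew 191, 202 and 186 counts in the NOD.B10 libraries and 241, 249 and 236 in the BL/10 libraries (log2 fold change -0.33, edgeR adjusted p 0.130). Spef1, a microtubule-binding protein gene that shares 20 exonic bases with Cenpb, drew 55, 72 and 75 counts against 75, 91 and 82 (log2 fold change -0.31, edgeR adjusted p 0.339). Snrpd1 shares 5.56% of its words, mostly with Gm14277, which had 4, 2 and 2 counts against 3, 6 and 7. The shares of Snrnp70 (1.38%), Top1 (0.62%), Snrpb (0.05%) and Cenpb (0) were smaller. All these shares are of the words of every annotated transcript of a gene (GENCODE M21), which can include sequence outside the counted exons. Snrnp70 has 8033 words against 1676 counted exonic bases, and Snrpd1 2015 against 837. The share within the counted exons can therefore be larger. Gm44075, a locus on chromosome 6 that holds 8 of the words of Trim21 and was singled out after its values were seen, drew 34, 34 and 24 counts in the NOD.B10 libraries and 0, 0 and 0 in the BL/10 libraries. Against a floor of 3 counts per library it was at least 10.2-fold higher in NOD.B10, given as a description with no test, and which of those counts came from the shared words was not tested.

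Genes whose pattern over the 6 libraries is most like that of each autoantigen gene were found by Pearson r of log2 CPM, among tested genes with a mean of at least 10 CPM. With 6 points that share their libraries this is a description. Trim21 was closest to Thoc6 (r 0.978), Clpp (0.977) and Prdm4 (0.976), and 12 genes were above 0.95. Ssb was closest to Nop58 (0.997), Nhp2 (0.993) and Prmt7 (0.990), with 54 genes above 0.95. Nop58 and Nhp2 are proteins of small nucleolar RNA particles. Snrnp70 had among its most alike genes Apex2 (0.991) and Prpf3 (0.983), with 23 genes above 0.95, Prpf3 being a splicing factor of the U4/U6 particle. Snrpb was closest to Cox5b (0.998), Atp5o (0.997) and Rad18 (0.995), with 351 genes above 0.95, the largest number among the 7. Cox5b and Atp5o belong to mitochondrial respiration, and Rad18 is a DNA repair ligase. Snrpd1 was closest to Fkbp8 (0.997), Psmd13 (0.996) and Timm23 (0.996), with 74 genes above 0.95. Cenpb was closest to Tbx21 (0.999), the T-bet factor of T helper cells, then Armc10 (0.990) and I830077J02Rik (0.989), with 32 genes above 0.95. Top1 was closest to Aspm (0.997), a mitotic spindle protein, then Xk (0.996) and Camsap2 (0.996), with 210 genes above 0.95. None of these 20 named genes passed an adjusted p of 0.05 in edgeR.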

How the data were processed

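Total RNA of spleens was sequenced (TruSeq RNA, Illumina HiSeq, single-end), and the authors deposited raw counts per gene from featureCounts 1.5.1 with Ensembl 84, as unstranded exon counts, with HISAT2 2.0.5 listed for alignment in the labels. The 6 columns of the strains were used, and strain was taken from description and column name; this reading was chosen with earlier results of these data known. The members and gene lists were likewise chosen with earlier results of these data known. Symbols came from GENCODE M21 (47224 of 47729 identifiers). Genes were filtered with filterByExpr, scaled by TMM, and tested with the edgeR quasi-likelihood test (edgeR 4.0.16, limma 3.58.1, R 4.3.3, Python 3.11.15), BL/10 as reference, with Benjamini-Hochberg adjustment and a threshold of 0.05. Precision follows from 3 libraries per strain and 15662712 to 18298451 counted reads each, and standard errors are the fold change over the root of the F statistic. The named genes are all 7 members, every list gene past the threshold or the 6 with the largest change where more passed, 3 genes most like each member (log2 of CPM plus 0.5), neighbours and overlapping genes, and the most abundant gene of each marker list; Gm44075 was added after its values were seen. Some genes that this rule takes are not reported here. Alternatives were DESeq2 1.42.0, limma-voom with sample weights, other scalings, other filters, a replicate block, age as a covariate, an adjusted p of 0.01, each library left out, and, added after the data were seen, the 36-week libraries left out.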

Additional observations from a re-analysis of the deposited data

How the results depend on the processing

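The count of the 7 autoantigen genes past the threshold was 0 in every setting. Of their log2 fold changes, those of Snrnp70 (0.056) and Top1 (0.099) turned positive with age as a covariate, and likewise without the 36-week libraries (0.055 and 0.098), an alternative chosen after seeing the data. In both age settings the BL/10 side of the strain difference is 1 library. The count of all genes fell from 2656 to 943 with age as a covariate, 1001 without the 36-week libraries and 1035 at an adjusted p of 0.01, and ran from 1269 to 4107 with a library left out. The count of genes over the 11 lists, 25, was 38 by DESeq2, 39 by limma-voom and 10 at an adjusted p of 0.01. It ran from 11 to 51 with a library left out. The count of interferon-stimulated genes, 13, was 4 with age as a covariate, 4 without the 36-week libraries and 5 at an adjusted p of 0.01, and ran from 6 to 15 with a library left out. The cause of these shifts was not tested. With the replicate number as a replicate block the counts were 2889, 36 and 9, with 12 of 22 centromere and 3 of 10 topoisomerase genes; libraries with the same number had r of 0.054, 0.251 and -0.076, so the numbers do not pair. Of 399 alternative values for the 25 called list genes, 0 reversed and 313 kept the call. Age and strain overlap in part, 3 libraries per strain leave wide intervals, the strain labels conflict, and protein and autoantibody levels were not analysed here.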
